A study of Mus musculus with 92 samples.

Results

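Immunity-related GTPases are interferon-inducible GTP-binding proteins of the mouse, best known for acting at the membranes of vacuoles that hold intracellular pathogens. The regulatory members Igtp, Irgm1 and Irgm2 sit on the cell's own membranes and hold the effector members in an inactive state there, and Irgm1 also takes part in autophagy and in the handling of mitochondria. The effector members Iigp1, Tgtp1 and Tgtp2 load onto pathogen vacuoles and disrupt them, and macrophages and microglia make transcripts of both kinds when they are exposed to type I or type II interferon. The members were taken by name from the gene table and comprised Igtp, Irgm1, Irgm2, Iigp1, Tgtp1 and Tgtp2, which are 6 of the 29956 named genes.

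The study asked whether progenitors that grow without limit in culture can be edited and then stand in for microglia after transfer into a brain that has none. Bulk RNA was sequenced in 92 libraries that the labels place in 25 groups, and every donor animal was of the FVB strain. ER-Hoxb8 cells are bone marrow progenitors held in a dividing state by an estrogen-regulated Hoxb8 transgene, and they become macrophages when estradiol and GM-CSF are replaced by M-CSF. Cells were compared in culture, after engraftment in Csf1r-/- hosts (CSF1R KO brain, which lacks its own microglia), after an Adar guide RNA, and under the JAK inhibitor baricitinib.

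Wild-type bone marrow gave 3 libraries of progenitors, 3 of monocytes, and 3 of macrophages after 7 days of M-CSF (BMD macrophages). ER-Hoxb8 cells of a Cas9 het donor gave 3 libraries each of progenitors at day 0, of cells at day 4, and of macrophages at day 7 (Hoxb8 macrophages). Cells sorted back out of the Csf1r-/- brain came from wild-type bone marrow (BMD MLC, microglia-like cells, 6 libraries) or from ER-Hoxb8 cells labelled wild type (Hoxb8 MLC, 6 libraries), and 9 libraries held microglia of uninjected wild-type mice. Cas9 het ER-Hoxb8 cells with a non-targeting guide (NTC) or with Adar sgRNA 1 (genotype label Adar KO, here Adar1 KO) gave 3 libraries each of progenitors and of day 7 macrophages. Adar sgRNA 2 gave 3 libraries of progenitors and 5 of macrophages, with no NTC library normalized beside them. A further 33 libraries held NTC or Adar1 KO (sgRNA 1) macrophages at day 7 with baricitinib, 3 or 4 libraries a group. The doses 0, 0.0006, 0.016, 0.4 and 10 uM are those of the sample titles, whereas the treatment protocol lists 0.00064 and 0.16 uM in place of 0.0006 and 0.016 uM. The edited cells were sorted pools of transduced cells and not single clones.

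Levels are log2 CPM (read counts scaled to library size) as the authors deposited them, in 6 sets of libraries that each share 1 lowest value, which is the value of a gene with no counts. The lowest value was -4.34 in the 12 early bone marrow and ER-Hoxb8 libraries (mean depth 40.6 M reads), -3.62 in the 27 brain and cultured macrophage libraries (24.5 M reads), -3.43 in 11 NTC and sgRNA 1 libraries (21.5 M reads), -3.56 in the 8 sgRNA 2 libraries (23.6 M reads) and -2.78 in the 33 baricitinib libraries (13.7 M reads). NTC macrophage replicate 2 stood alone with a lowest value of -3.09 (17.1 M reads), and it was left out of the tests. These depths were inferred from the lowest values with a prior count of 2. They are means of a set, and the depths of single libraries are not known. Groups were compared only within a set, by limma across all genes that passed a filter on low values, and a call needed an adjusted p under 0.05 together with a log2FC no smaller in size than 2. The libraries are bulk samples, in which fewer cells of a type and less RNA per cell cannot be told apart. The paper describes independent ER-Hoxb8 lines, calls the early, cultured macrophage and brain libraries biological replicates, and names separately differentiated cultures for the baricitinib cells. For the other NTC and Adar1 KO libraries neither paper nor labels say whether replicates came from separate cultures, so p-values there measure only the spread between samples, which may be technical.

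A pair of libraries stood apart from their groups. Microglia replicate 8 had the lowest Igtp of its group at 2.06, the lowest Irgm2 at -1.80 and the lowest Tgtp2 at 0.16 log2 CPM. Its summed neuron genes were at 39.8 CPM beside 0.793 to 3.36 in the other microglia libraries; Tubb3 was the most abundant of the list in microglia, no gene of it was at 0 in every microglia library. Mbp, a gene of myelin-forming cells, was at 6.81 log2 CPM beside 2.99 to 5.55 in the other microglia libraries. The part of such cells in its member levels was not tested. The Adar1 KO library at 0.4 uM numbered replicate 2 had Igtp at 10.22 log2 CPM beside 4.82 and 5.24 in the other two of its group. Results that rest on either library are given with and without it.

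The promoters of 5 of the 6 members were matched by symbol in a RefSeq table on the build GRCm38.p6, each with 250 bases before and 50 after the start site, and Iigp1 was the member without a match. They were searched on both strands for the core letters of the interferon-stimulated response element (GAAANNGAAA) and of the gamma-activated site (TTCNNNGAA), because the members tested were called higher together in Hoxb8 MLC and in Adar1 KO macrophages, described below. GAAANNGAAA was present in 5 of 5 member promoters and in 3.44% of all 32851 promoters of this length. TTCNNNGAA was present in 4 of 5 member promoters, Irgm1 being the exception, and in 8.3% of all promoters. In Igtp, Irgm2, Tgtp1 and Tgtp2 the letters followed each other with 2 bases between them (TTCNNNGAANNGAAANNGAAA, a spelling chosen after the sequences were seen), and of all 32851 promoters 5 held this arrangement, the fifth being that of Gm12185, another gene of the family. The following windows of 30 bases are shown because they carry these matches, which are in capitals; a match is a description and not a site or a cause. The Igtp window lies at chr11:58199506-58199535 on the plus strand, the Irgm1 window at chr11:48871428-48871457 on the minus strand, the Irgm2 window at chr11:58214897-58214926 on the plus strand, the Tgtp1 window at chr11:48992310-48992339 on the minus strand, and the Tgtp2 window at chr11:49064269-49064298 on the minus strand, each read 5′ to 3′ along its gene.
Igtp: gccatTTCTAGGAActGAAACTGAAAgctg
Irgm1: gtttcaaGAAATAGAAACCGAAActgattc
Irgm2: gccatTTCCAGGAActGAAACTGAAAgctg
Tgtp1: gccatTTCCAGGAAtcGAAACTGAAAccta
Tgtp2: gccatTTCCAGGAAtcGAAACCGAAAccta
Relative to the start site, the GAAANNGAAA match began at base -34 in Igtp, -64 in Irgm2, -77 in Tgtp1 and -70 in Tgtp2, and Irgm1 held a pair of overlapping matches at -30 and -24.

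Hoxb8 MLC were compared with microglia to see how engrafted ER-Hoxb8 cells differ from the cells they replace. All 6 members passed the filter in the brain set, and each would have passed without the Hoxb8 MLC libraries. In this comparison 6 of 6 members were called higher in Hoxb8 MLC, beside 16.3% of the 12518 genes tested. Their median log2FC was 6.31, beside -0.10 over all genes tested. The call held for the 6 members when any 1 library of either group was left out.

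Among the regulatory members, Igtp lay between 8.54 and 11.33 log2 CPM (median 10.49) in the 6 Hoxb8 MLC libraries and between 2.06 and 6.72 (median 6.44) in the 9 microglia libraries. Every Hoxb8 MLC library was above every microglia library, and without microglia replicate 8 the lowest microglia value was 6.16. Igtp was higher by a log2FC of 4.18 (SE 0.507, limma adjusted p 2.62e-07). Irgm1 lay between 7.79 and 9.60 log2 CPM (median 9.16) in Hoxb8 MLC and between 3.05 and 6.11 (median 5.21) in microglia, again with no overlap. Its log2FC was 3.83 (SE 0.379, limma adjusted p 7.28e-09). Irgm2 lay between 4.93 and 8.71 log2 CPM (median 7.44) in Hoxb8 MLC and between -1.80 and 5.50 (median 5.00) in microglia. The Irgm2 ranges met at Hoxb8 MLC replicate 4, the lowest of its group, and the other Hoxb8 MLC libraries were above every microglia library. Irgm2 was higher by a log2FC of 3.13 (SE 0.788, limma adjusted p 0.00274). Without microglia replicate 8 the log2FC was 3.70 for Igtp and 2.39 for Irgm2, and both stayed called (limma adjusted p 6.57e-11 and 0.000165).

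The effector members differed more. Iigp1 lay between 9.83 and 11.40 log2 CPM (median 10.90) in Hoxb8 MLC and between -2.82 and 3.44 (median 1.53) in microglia, with a log2FC of 9.58 (SE 0.659, limma adjusted p 9.74e-12). Tgtp2 lay between 10.91 and 11.98 log2 CPM (median 11.73) in Hoxb8 MLC and between 0.16 and 4.42 (median 3.14) in microglia, with a log2FC of 8.43 (SE 0.590, limma adjusted p 1.29e-11). Tgtp1 lay between 7.51 and 9.80 log2 CPM (median 9.25) in Hoxb8 MLC and between -1.73 and 1.98 (median 0.40) in microglia, with a log2FC of 8.62 (SE 0.565, limma adjusted p 3.97e-12). For each of the 3 effector members the lowest Hoxb8 MLC library was above the highest microglia library. Tgtp1 and Tgtp2 are near-identical copies, so the split of reads between them is uncertain. With their CPM summed the log2FC was 8.47 (limma adjusted p 2.62e-12), and Tgtp1 made up 6.03% to 23.4% of the sum in Hoxb8 MLC.

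**Figure D1:**
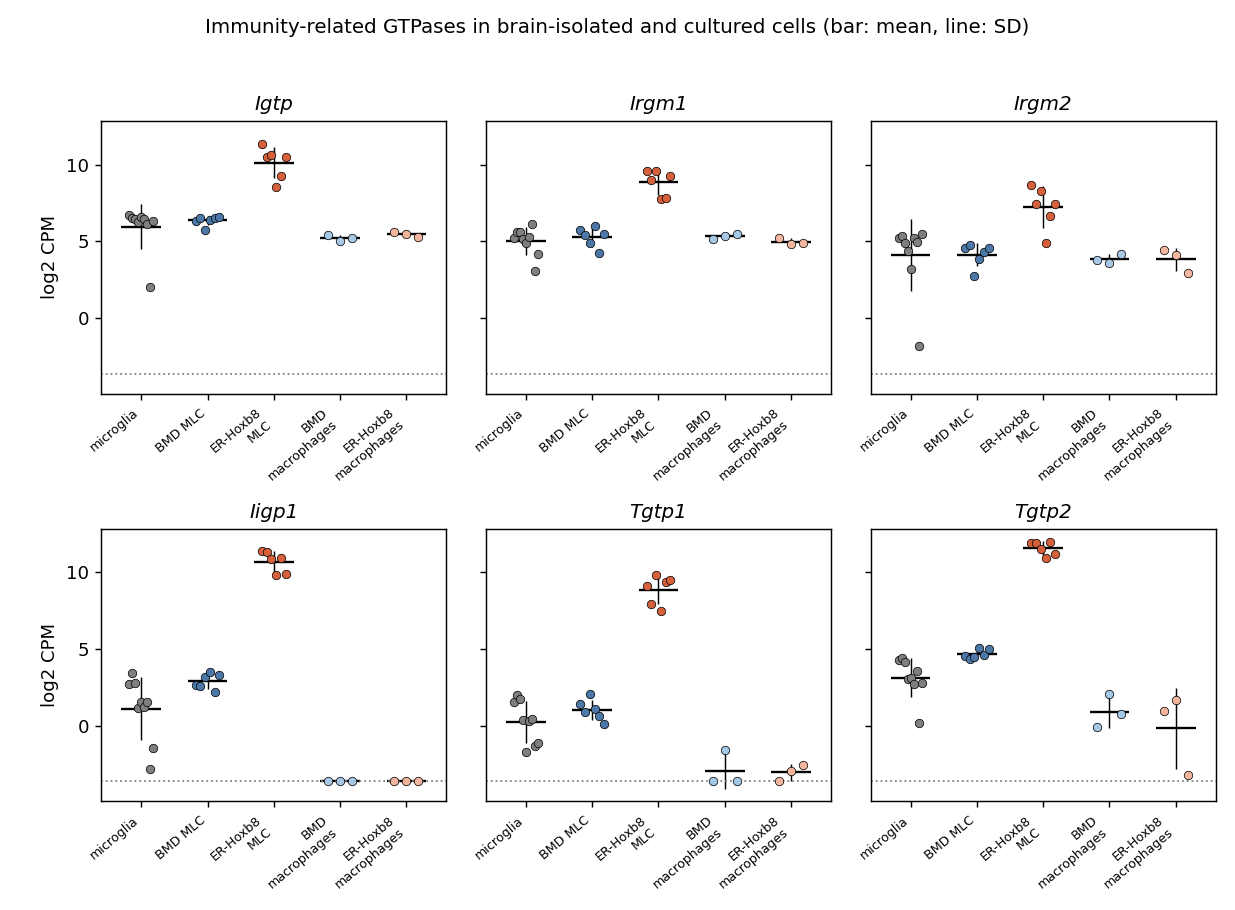
Log2 CPM of the 6 immunity-related GTPases in each library of the brain and cultured macrophage set, with bars for means, lines for SD and a dotted line at the lowest value of the set (-3.62). The 6 Hoxb8 MLC libraries stood above the libraries of every other group in Igtp, Irgm1, Iigp1, Tgtp1 and Tgtp2, and Irgm2 of Hoxb8 MLC replicate 4 (4.93) lay within the microglia range.

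The 6 Hoxb8 MLC libraries came in a pair of library series by the column names of the table, GFPHox (replicates 1 to 3) and WTHox (replicates 4 to 6). The paper describes GFP-expressing donor cells for transplants, but neither paper nor labels say what the column names stand for. Mean levels were 10.83 and 9.44 log2 CPM for Igtp, 9.41 and 8.30 for Irgm1, and 8.15 and 6.34 for Irgm2 in GFPHox and WTHox libraries. For the effectors they were 11.19 and 10.21 for Iigp1, 8.96 and 8.79 for Tgtp1, and 11.80 and 11.36 for Tgtp2. Against microglia, 6 members were called with the GFPHox libraries alone and 5 with the WTHox libraries alone. Irgm2 was the member lost with WTHox libraries, at a log2FC of 2.23 (limma adjusted p 0.0917). The difference between the series was not tested. Without the 2 microglia libraries named YSWT (replicates 8 and 9) the count was 6.

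Hoxb8 MLC and BMD MLC were both recovered from Csf1r-/- brains, so their comparison holds the host constant. In it 6 of 6 members were called higher in Hoxb8 MLC, beside 6.56% of genes tested. The median log2FC of the members was 5.33, beside -0.22 over all genes tested. No library of BMD MLC reached the lowest Hoxb8 MLC library for any of the 6 members. Markers of other cells differed in the same comparison: 3 of 4 border-associated macrophage genes (Mrc1, Pf4 and Cd163) and 3 of 6 neutrophil genes were called lower in Hoxb8 MLC, and 3 of 7 tested NK and T cell genes higher. The border-associated sum was 873, 1002, 143, 719, 137 and 2.54 CPM in Hoxb8 MLC replicates 1 to 6 and had a median of 1986 CPM in BMD MLC (highest 2252), with Mrc1 the most abundant and none at 0, and the part of these cells in the members' levels was not tested.

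Igtp lay between 5.77 and 6.60 log2 CPM (median 6.46) in BMD MLC, and was higher in Hoxb8 MLC by a log2FC of 3.77 (SE 0.555, limma adjusted p 2.84e-05). Irgm1 lay between 4.26 and 6.03 (median 5.46), and was higher in Hoxb8 MLC by a log2FC of 3.55 (SE 0.415, limma adjusted p 9.34e-07). Irgm2 lay between 2.77 and 4.79 (median 4.44), and was higher in Hoxb8 MLC by a log2FC of 3.09 (SE 0.863, limma adjusted p 0.0154). With WTHox libraries alone Irgm2 was no longer called, at a log2FC of 2.19 (limma adjusted p 0.168). Among the effectors, Iigp1 lay between 2.22 and 3.52 log2 CPM in BMD MLC (median 2.92), and its log2FC of 7.79 had a limma adjusted p of 2.23e-08. Tgtp1 lay between 0.11 and 2.04 log2 CPM in BMD MLC (median 0.99), with a log2FC of 7.84 (limma adjusted p 2.23e-09). Tgtp2 lay between 4.38 and 5.09 log2 CPM in BMD MLC (median 4.56), with a log2FC of 6.89 (limma adjusted p 2.68e-08).

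BMD MLC were compared with microglia to see whether engrafted cells of primary bone marrow differ from the cells they replace. The groups differ in cell origin and in the genotype of the brain as well as in engraftment, and these cannot be told apart. By limma 0 of 6 members were called, beside 10.7% of genes tested, and 2 members had an unadjusted p under 0.05. The median log2FC of the members was 0.60, beside 0.06 over all genes tested. Those with the lowest p were Iigp1 (log2FC 1.79, limma adjusted p 0.0549) and Tgtp2 (log2FC 1.55, limma adjusted p 0.0655). Iigp1 was called without microglia replicate 2, at a log2FC of 2.08 (limma adjusted p 0.0209, range over the left-out libraries 0.0209 to 0.109). The regulators had log2FCs of 0.42 for Igtp, 0.29 for Irgm1 and 0.04 for Irgm2, with limma adjusted p of 0.645, 0.678 and 0.982. Without microglia replicate 8 the log2FC was -0.07 for Igtp and -0.70 for Irgm2 (limma adjusted p 0.898 and 0.313), so the sign of both rests on that library. Both groups overlapped in each of the 6 members. The comparisons of Hoxb8 MLC and of BMD MLC with microglia share the microglia libraries.

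Engrafted cells were also set against macrophages grown from donor cells of their kind in culture. In Hoxb8 MLC against Hoxb8 macrophages 6 of 6 members were called higher, beside 19.3% of genes tested, with a median log2FC of 8.21 beside -0.15 over all genes tested. In BMD MLC against BMD macrophages 3 of 6 members were called higher, Iigp1, Tgtp1 and Tgtp2, beside 15.9% of genes tested, with a median log2FC of 2.46 beside -0.01. Both medians were unchanged with Iigp1 at its lower bound. Hoxb8 MLC (genotype label WT) and Hoxb8 macrophages (Cas9 het) also differ in donor genotype, and engrafted cells were sorted into TRIzol LS before an RNeasy column whereas cultured cells were extracted with RNeasy alone, so these and engraftment cannot be told apart.

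Hoxb8 macrophages had Igtp at 5.64, 5.46 and 5.30 log2 CPM, and Hoxb8 MLC were higher by a log2FC of 4.67 (SE 0.680, limma adjusted p 1.05e-05). Irgm1 was at 5.26, 4.82 and 4.87 log2 CPM in Hoxb8 macrophages, with a log2FC of 3.87 (SE 0.509, limma adjusted p 2.36e-06). Irgm2 was at 4.42, 4.12 and 2.96 log2 CPM, with a log2FC of 3.41 (SE 1.06, limma adjusted p 0.0146). None of these Hoxb8 macrophage libraries reached the lowest Hoxb8 MLC library. The Irgm2 call rests on Hoxb8 macrophages replicate 3, without which its log2FC was 2.98 (limma adjusted p 0.0736, range over the left-out libraries 0.00699 to 0.0736) and 5 members were called, and it was also lost with WTHox libraries alone (log2FC 2.51, limma adjusted p 0.113).

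Iigp1 was at 0 in every Hoxb8 macrophage and every BMD macrophage library. Set against a floor of 3 counts at the inferred mean depth of the set, Iigp1 was at least 13612-fold higher in Hoxb8 MLC than in Hoxb8 macrophages. It was at least 60.9-fold higher in BMD MLC than in BMD macrophages. Tgtp1 was at -3.62, -2.94 and -2.53 log2 CPM in Hoxb8 macrophages, with a log2FC of 11.90 in Hoxb8 MLC (limma adjusted p 8.47e-12). In BMD macrophages Tgtp1 was at -3.62, -1.58 and -3.62 log2 CPM, with a log2FC of 3.97 in BMD MLC (limma adjusted p 0.000333), a call lost on the scale of log2(CPM + 1) at 1.49. Tgtp2 was at 0.95, 1.71 and -3.18 log2 CPM in Hoxb8 macrophages, with a log2FC of 11.75 (limma adjusted p 2.2e-11). In BMD macrophages Tgtp2 was at -0.08, 2.07 and 0.78 log2 CPM, with a log2FC of 3.76 (limma adjusted p 0.000867). Engrafted and cultured cells did not overlap in any effector, for either donor. For the regulators in BMD MLC against BMD macrophages, log2FCs were 1.16 for Igtp, -0.03 for Irgm1 and 0.28 for Irgm2, with limma adjusted p of 0.2, 0.969 and 0.863. Igtp too was higher in every BMD MLC library than in every BMD macrophage library, and Irgm1 and Irgm2 overlapped.

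In culture the donor kinds were close. Hoxb8 macrophages against BMD macrophages gave 0 of 6 members called by limma, beside 1.85% of genes tested, and 0 members with an unadjusted p under 0.05. The median log2FC was -0.06, or -0.09 without Iigp1, beside 0.00 over all genes tested. Igtp was at 5.43, 5.01 and 5.20 log2 CPM in BMD macrophages, within a log2FC of 0.26 of the Hoxb8 macrophages. Iigp1 was at 0 in both groups, so no fold is given. The largest difference among the other members was that of Tgtp2, with a log2FC of -1.10 (SE 0.914, limma adjusted p 1).

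The interaction tests whether the difference between engrafted and cultured cells was larger for Hoxb8 than for BMD donors. Donor genotype differs between engrafted (WT) and cultured (Cas9 het) Hoxb8 cells but not between the BMD groups. Donor kind and this difference in genotype therefore cannot be told apart in the interaction. The interaction called 5 of 6 members, beside 2.48% of genes tested, with a median of 5.85 beside -0.20 over all genes tested. Irgm1 had an interaction log2FC of 3.91 (SE 0.719, limma adjusted p 0.00191), Tgtp1 of 7.93 (SE 1.07, limma adjusted p 4.62e-05) and Tgtp2 of 7.99 (SE 1.12, limma adjusted p 8.08e-05). The fitted 7.79 of Iigp1 (limma adjusted p 0.000428) depends on the prior count, since both cultured groups were at 0. Igtp had 3.51 (SE 0.962, limma adjusted p 0.042), and its call was lost in 16 of the 18 fits that left out 1 library, with adjusted p between 0.0159 and 0.101. It was kept without Hoxb8 MLC replicate 4 or 5, and it was lost without any of the other 16 libraries, which left 4 members called; it was also lost with WTHox libraries alone (log2FC 2.81, limma adjusted p 0.137) and with no filter (limma adjusted p 0.0646). Irgm2 was not called at 3.13 (SE 1.49, limma adjusted p 0.315), and it was called without microglia replicate 8 (limma adjusted p 0.0295), a library that enters only through the shared spread. Irgm2 was also called with the replicate number as a block (limma adjusted p 0.0221) and with array weights (limma adjusted p 0.000272).

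Markers of other cells were read beside these results. Of the 8 NK and T cell genes listed, 7 were tested and 4 were called higher in Hoxb8 MLC than in microglia, namely Cd3e, Cd8a, Nkg7 and Klrb1c. Their summed level was 57.9, 38.1, 237, 74.1, 140 and 913 CPM in Hoxb8 MLC replicates 1 to 6, 13.7 to 108 CPM in BMD MLC (median 54.6) and 2.16 to 40.9 CPM in microglia (median 16.3). The most abundant gene was Nkg7 in Hoxb8 MLC (85.6 CPM) and Cd3d in BMD MLC and in microglia, and no gene of the list was at 0 in every library of any of these groups. In the order of rising sum (replicates 2, 1, 4, 5, 3 and 6), Tgtp1 was at 7.96, 9.12, 7.51, 9.38, 9.80 and 9.47 log2 CPM. Replicate 2, with the lowest sum, had Igtp at 10.49, Iigp1 at 11.30 and Tgtp2 at 11.92 log2 CPM. Replicate 6, with the highest sum, had Igtp at 10.48, Iigp1 at 9.90 and Tgtp2 at 11.19 log2 CPM. The brain cells had been sorted, with CD45 and CD11b among the stains listed in the methods. Beside these libraries the paper also cites a gating scheme (live, singlet, leukocyte, GFP) whose caption names the TMEM119 stain. The part of NK and T cells in the members' levels was not tested.

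Neutrophil genes followed another order. None of the 6 was called in Hoxb8 MLC against microglia, and 5 were called higher in BMD MLC, where the members were not called. Their sum was 762, 237, 330, 17843, 41079 and 3349 CPM in Hoxb8 MLC replicates 1 to 6, 4434 to 32953 CPM in BMD MLC (median 29837) and 406 to 5862 CPM in microglia (median 1950), with Ngp the most abundant in each and none at 0. The library with the highest sum, Hoxb8 MLC replicate 5, had Igtp at 9.29, Irgm2 at 6.65 and Iigp1 at 10.92 log2 CPM. Replicate 4, with the next highest sum, had the lowest Igtp (8.54), Irgm2 (4.93) and Tgtp2 (10.91) of Hoxb8 MLC. Any part of neutrophils in these levels was not tested.

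The same lists differed between engrafted and cultured cells. For Hoxb8 donors 6 of 7 tested NK and T cell genes and 6 of 6 neutrophil genes were called higher in the brain than in culture, and for BMD donors 3 of 7 and 6 of 6. The NK and T cell sum was 1.63, 0.648 and 0.808 CPM in Hoxb8 macrophages (Nkg7 the most abundant, Cd3e at 0) and 2.04, 1.28 and 0.527 CPM in BMD macrophages (Cd3d the most abundant, Ncr1 at 0). The neutrophil sum was 37.8, 16.1 and 9.97 CPM in Hoxb8 macrophages (S100a8 the most abundant) and 16.1, 9.82 and 3.21 CPM in BMD macrophages (Ngp the most abundant), with none at 0. Of 5 macrophage genes 1, Cd68, was called lower in Hoxb8 MLC than in Hoxb8 macrophages, where the sum was 7839, 6583 and 9254 CPM (Cd68 the most abundant, none at 0), beside 1715 to 5110 CPM in Hoxb8 MLC. The part of other cells in the difference between engrafted and cultured cells was not tested.

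**Figure D2:**
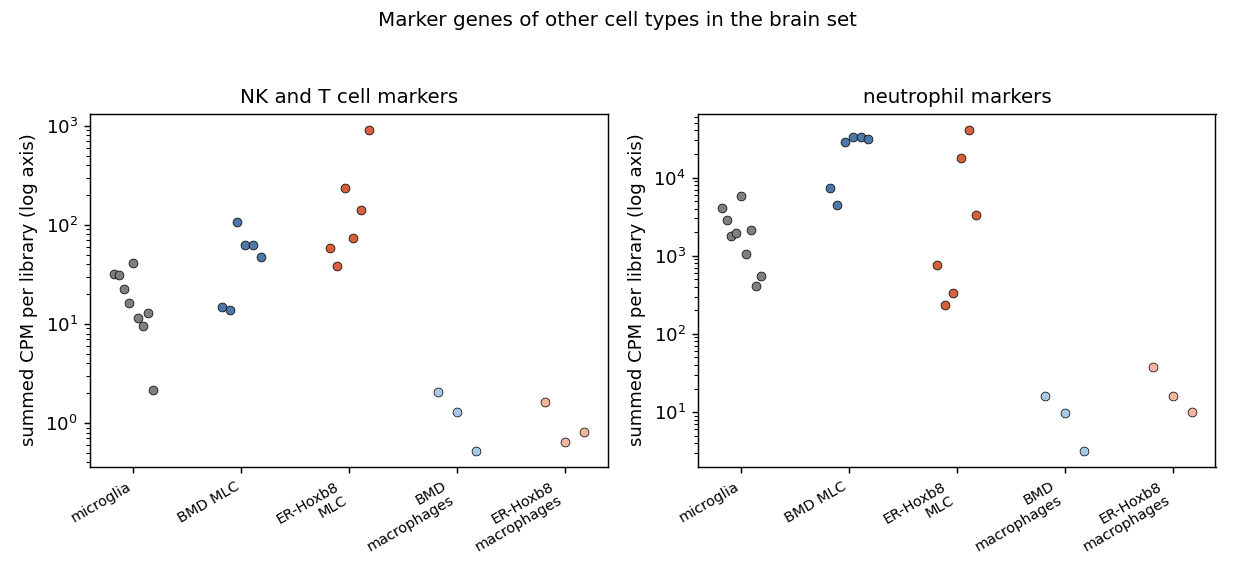
Summed CPM of the NK and T cell genes and of the neutrophil genes (log axis) in each library of the brain and cultured macrophage set, 1 point a library. Hoxb8 MLC ranged from 38.1 to 913 CPM for NK and T cell genes and from 237 to 41079 CPM for neutrophil genes, beside 2.16 to 40.9 and 406 to 5862 CPM in microglia.

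The identity of the engrafted cells was read from microglia genes. P2ry12, Tmem119, Sall1 and Siglech were called lower in Hoxb8 MLC than in microglia, and P2ry12, Sall1 and Siglech were also called lower in BMD MLC than in microglia and higher in Hoxb8 MLC than in Hoxb8 macrophages. Hoxb8 MLC replicate 6 stood apart, with P2ry12 at 4.76 (others 6.59 to 10.57), Siglech at 1.43 (others 5.40 to 7.43) and Mrc1 at 1.09 log2 CPM (others 6.85 to 9.79) beside the highest NK and T cell sum. Without it 6 of 6 members were still called higher in Hoxb8 MLC than in microglia and than in BMD MLC. Of 5 macrophage genes 1, Csf1r, was called lower in Hoxb8 MLC than in microglia, and of 4 border-associated macrophage genes 1, Mrc1, was called higher. Of the other lists in that comparison, neurons had 0 of 1 tested called, astrocytes 1 higher (Gfap) and 1 lower (Slc1a3) of 3, endothelium 1 of 2 higher (Flt1) and progenitors 1 of 2 lower (Cd34).

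Genes that act before the members in the interferon pathway were read from lists. Of the transcription factors, Irf1 (log2FC 3.58) and Stat2 (3.21) were called higher in Hoxb8 MLC than in microglia, and Irf9 was not called at 1.13. Of the 7 interferon receptor chains and JAK kinases 0 were called by limma in that comparison, and 3 had an unadjusted p under 0.05. The ligands Ifnb1 and Ifng did not pass the filter in the brain set. Ifng lay between -3.62 and 6.73 log2 CPM in Hoxb8 MLC (median 0.18, 1 of 6 libraries at the lowest value) and between -3.62 and -1.64 in microglia (median -3.03). Ifnb1 was at the lowest value in 4 of 6 Hoxb8 MLC, 6 of 6 BMD MLC and 8 of 9 microglia libraries. Of 7 autophagy genes that work with the regulatory members 0 were called by limma, and 3 had an unadjusted p under 0.05.

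Other genes of the GTPase family were read in Hoxb8 MLC as well. Of 10 measured genes 8 were tested, and 4 were called higher than in microglia, Gm4951 (log2FC 8.19), F830016B08Rik (7.21), Gm12250 (7.18) and Gm12185 (5.56). BMD MLC had 2 of these called higher than microglia, Gm12250 and Gm4951. Over the 27 libraries of the brain set, the genes outside the members whose log2 CPM was most like the 6 members were Gbp5 (mean Pearson r 0.922), Serpina3f (0.913), Cxcl9 (0.91), Serpina3g (0.908) and Cfb (0.908). These libraries share groups, so the r describes differences between groups as well as within them.

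Adar itself was read before the members in the edited cells. A guide cut can leave the transcript in place, so its level does not check the edit, and these are libraries labelled Adar1 KO. Adar was at 6.96, 7.15 and 7.01 log2 CPM in Adar1 KO macrophages (sgRNA 1) and at 5.73 and 5.67 in the NTC macrophages of the same set. It was higher by a log2FC of 1.34 (limma adjusted p 0.000976) and short of the fold limit. In progenitors Adar was at 4.36, 4.23 and 4.24 log2 CPM with sgRNA 1 and at 4.20, 3.42 and 4.28 with NTC (log2FC 0.31, limma adjusted p 0.924).

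The comparison of Adar1 KO with NTC macrophages asks what loss of the RNA editor goes with. Here 5 of 5 tested members were called higher, beside 4.02% of the 11008 genes tested, with a median log2FC of 3.44 beside 0.05 over all genes tested. Tgtp1 did not pass the filter, and Iigp1 passed it only through the Adar1 KO macrophages, so it had to differ. The 5 calls held without any 1 library; leaving out an NTC library leaves a lone sample assumed to vary like the other groups. They also held with NTC macrophage replicate 2 included as deposited.

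Igtp was at 8.31, 7.67 and 7.05 log2 CPM in Adar1 KO macrophages and at 5.22 and 5.03 in NTC macrophages, a log2FC of 2.55 (SE 0.295, limma adjusted p 9.02e-05). Irgm1 was at 8.90, 8.85 and 8.32 log2 CPM and at 5.34 and 5.16, a log2FC of 3.44 (SE 0.177, limma adjusted p 2.91e-07). Irgm2 was at 6.78, 6.48 and 6.10 log2 CPM and at 4.33 and 3.95, a log2FC of 2.31 (SE 0.281, limma adjusted p 0.000132). In all 3 regulators every Adar1 KO library was above every NTC library. Iigp1 was at 2.85, 2.68 and 1.72 log2 CPM in Adar1 KO macrophages and at -1.53 and -3.43 in NTC macrophages, a log2FC of 4.89 (SE 0.592, limma adjusted p 0.000126). Tgtp2 was at 5.95, 5.70 and 4.64 log2 CPM and at -0.01 and 0.24, a log2FC of 5.31 (SE 0.525, limma adjusted p 2.58e-05). The groups did not overlap in either effector. Tgtp1 was at -2.48, 1.56 and -3.43 log2 CPM in Adar1 KO and at -3.43 and -1.83 in NTC macrophages, and these ranges overlapped.

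**Figure D3:**
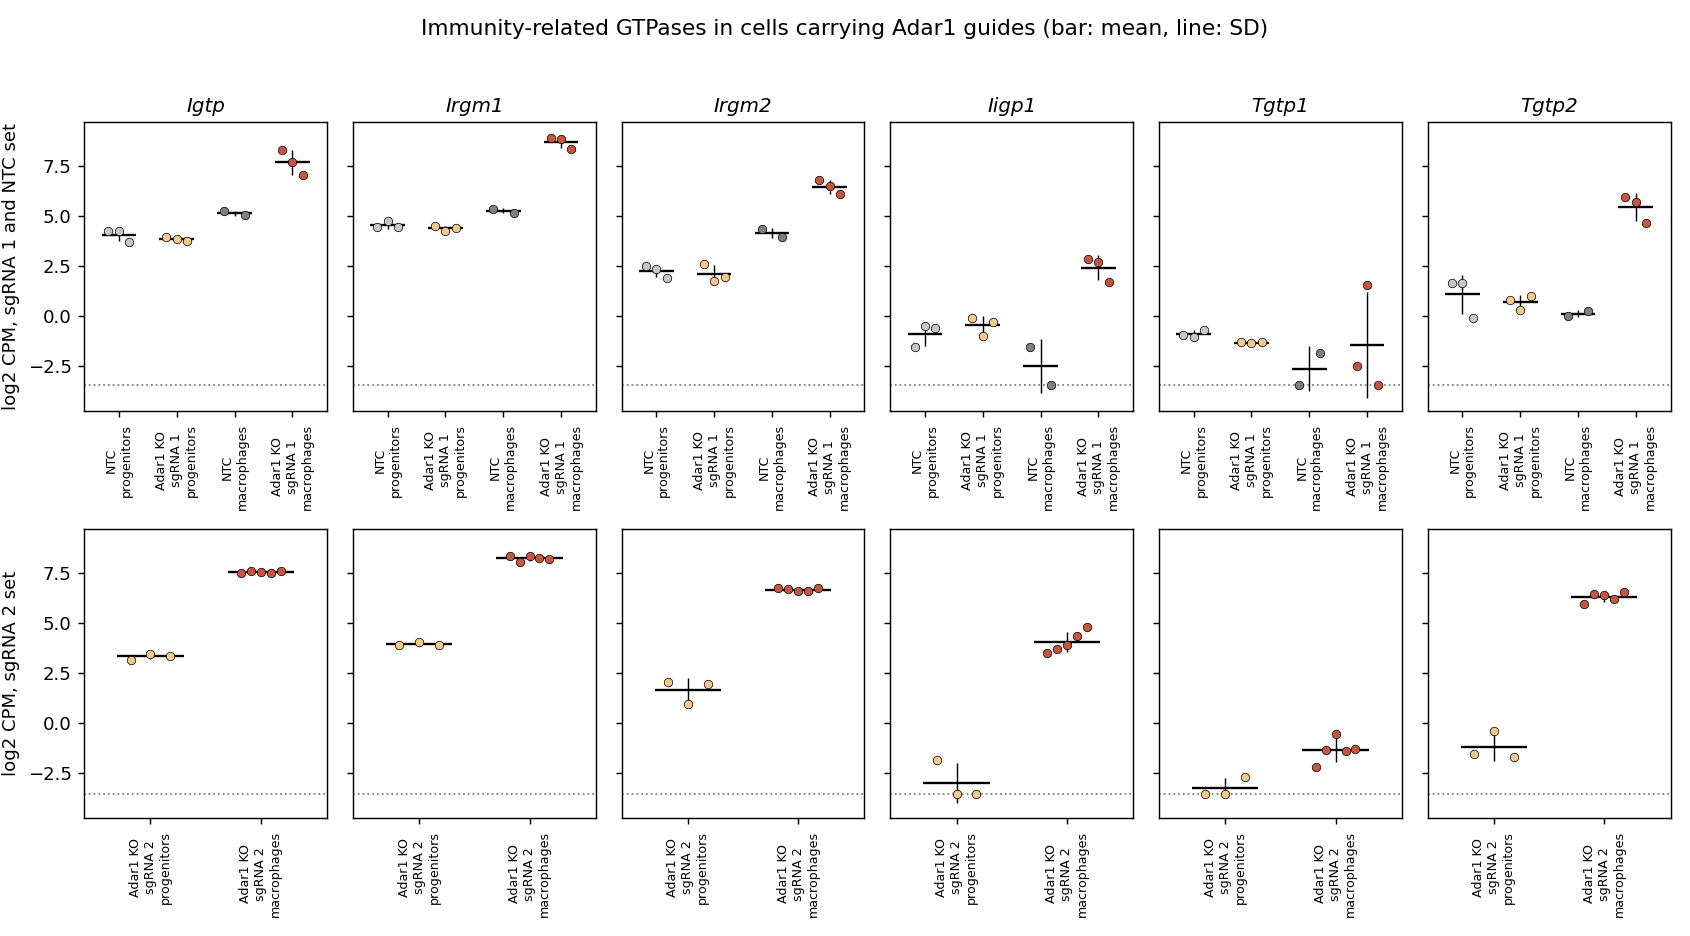
Log2 CPM of the 6 immunity-related GTPases in NTC and sgRNA 1 cells (upper panels) and in sgRNA 2 cells (lower panels), 1 point a library, with bars for means, lines for SD and a dotted line at the lowest value of each set. Adar1 KO macrophages with sgRNA 1 had Irgm1 between 8.32 and 8.90 log2 CPM beside 5.16 and 5.34 in NTC macrophages, while NTC and sgRNA 1 progenitors overlapped in each member but Tgtp1; NTC macrophage replicate 2 is not shown.

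In progenitors the same guide went with no call. By limma 0 of 5 tested members were called between Adar1 KO and NTC progenitors, beside 0.254% of genes tested, and 0 had an unadjusted p under 0.05. Their median log2FC was -0.16, beside -0.01 over all genes tested. Igtp was at 3.96, 3.84 and 3.75 log2 CPM with sgRNA 1 and at 4.25, 4.25 and 3.70 with NTC. Tgtp2 was at 0.80, 0.28 and 1.00 log2 CPM with sgRNA 1 and at 1.64, 1.66 and -0.07 with NTC. Libraries of both groups overlapped in these members, and fitted log2FCs of the 5 lay between -0.38 and 0.43. The interaction of guide and stage called 5 of 5 tested members, beside 4.19% of genes tested, with a median of 3.60 beside 0.08 over all genes tested. Its log2FC was 2.77 for Igtp, 3.60 for Irgm1 and 2.45 for Irgm2, with limma adjusted p of 0.000705, 5.03e-06 and 0.0012. For the effectors it was 4.47 for Iigp1, which had to differ by the filter, and 5.69 for Tgtp2, with limma adjusted p of 0.00327 and 0.000259.

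NTC macrophages were set against NTC progenitors to see what differentiation goes with. The progenitor columns carry the stem NTC2Prog and the macrophage columns kept carry the stem NTC, and what the stems stand for is not given. A difference between lines and differentiation therefore cannot be told apart here, and the interaction of guide and stage shares these libraries. By limma 0 of 5 tested members were called, beside 23.5% of genes tested, and 4 had an unadjusted p under 0.05. The median log2FC of the 5 was 0.72, beside -0.08 over all genes tested. Irgm2 came nearest to the fold limit, at a log2FC of 1.90 (SE 0.281, limma adjusted p 8.44e-05). It was called without NTC progenitor replicate 1 (log2FC 2.02, limma adjusted p 0.000183) or without NTC macrophage replicate 3 (log2FC 2.09, limma adjusted p 0.000385). Igtp had a log2FC of 1.05 (limma adjusted p 0.00723), and Iigp1 had -1.60 (limma adjusted p 0.0296). Iigp1 was called lower without NTC macrophage replicate 1, at -2.55 (limma adjusted p 0.00386). In each fit without an NTC macrophage library the other one is a lone sample assumed to vary like the other groups.

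With sgRNA 2, macrophages against progenitors gave 5 of 5 tested members called higher, beside 19.3% of the 10698 genes tested, with a median log2FC of 5.02 beside -0.03. No NTC library shares this set, so the effect of the guide and that of differentiation cannot be told apart. Iigp1 and Tgtp2 passed the filter only through the macrophages, so they had to differ. Igtp was at 7.50, 7.59, 7.52, 7.48 and 7.58 log2 CPM in macrophages and at 3.16, 3.44 and 3.35 in progenitors, a log2FC of 4.22 (SE 0.0673, limma adjusted p 4.24e-12). Irgm1 was at 8.34, 8.04, 8.31, 8.24 and 8.17 log2 CPM in macrophages and at 3.86, 4.02 and 3.88 in progenitors, a log2FC of 4.30 (SE 0.0730, limma adjusted p 6.58e-12). Irgm2, Iigp1 and Tgtp2 had log2FCs of 5.02, 7.02 and 7.51, with limma adjusted p of 4.56e-09, 1.05e-07 and 1.67e-09. Macrophages and progenitors did not overlap in any of the 5 tested members. The 5 calls held without any 1 library. Adar was higher in these macrophages than in their progenitors by a log2FC of 2.59. Cell type markers differed as well. The macrophage sum was 4598 to 4903 CPM in macrophages beside 350 to 358 CPM in progenitors. The endothelium sum was 54.3 to 59.6 beside 29.0 to 33.8 CPM, and the neutrophil sum 18.2 to 22.8 beside 9.66 to 12.3 CPM. The progenitor sum was 2.03 to 3.72 beside 6.81 to 11.2 CPM. The part of these differences in the members' levels was not tested.

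In the sgRNA 1 macrophages Stat2 was called higher than in NTC macrophages (log2FC 2.51), and Irf1 and Irf9 were not called, while 0 of 7 receptor chains and kinases were called by limma and 5 had an unadjusted p under 0.05. Ifnb1 did not pass the filter there, and it lay between 0.09 and 2.08 log2 CPM in Adar1 KO and at -3.43 and -2.28 in NTC macrophages. Ifng was at the lowest value in every macrophage library of the sgRNA 1, sgRNA 2 and baricitinib sets. NK and T cell genes were near 0, with a sum of 0.110 to 0.456 CPM in Adar1 KO and 0.128 to 0.227 CPM in NTC macrophages, and Cd3e, Nkg7, Ncr1 and Gzma were at 0 in every library of both groups. Of the 6 neutrophil genes 5 were tested, and S100a8, the most abundant, was called higher in Adar1 KO macrophages, with a sum of 69.1 to 82.6 CPM (S100a9 at 0) beside 10.8 to 15.4 CPM (Ngp at 0), and its bearing on the members was not tested. Mrc1, the 1 border-associated macrophage gene tested of 4, was called lower (log2FC -3.20), with a list sum of 78.8, 59.7 and 90.3 CPM in Adar1 KO beside 768 and 628 CPM in NTC macrophages, Mrc1 the most abundant and Lyve1 at 0 in both. Of 5 macrophage genes 0 were called by limma and 3 had an unadjusted p under 0.05, with a sum of 5166, 5954 and 5759 CPM in Adar1 KO (Cd68 the most abundant) beside 9369 and 8268 CPM in NTC macrophages (Csf1r the most abundant), none at 0. In the baricitinib set at 0 uM Mrc1 lay the other way, at 6.62, 6.56 and 6.47 log2 CPM in Adar1 KO and 5.66, 5.32 and 5.80 in NTC macrophages, and was not called, while Pf4 and Cd163 were called lower (2 of 3 tested). The border-associated sum there was 98.3, 95.1 and 89.1 CPM beside 54.6, 44.5 and 60.7 CPM (Mrc1 the most abundant, Lyve1 at 0 in Adar1 KO). The neutrophil sum there was 65.0, 67.6 and 54.1 CPM in Adar1 KO beside 95.4, 74.9 and 79.1 CPM in NTC macrophages (S100a8 the most abundant, S100a9 at 0 in both, Ngp and Ly6g at 0 in NTC), with 0 of 2 tested called by limma and 1 at an unadjusted p under 0.05. The endothelium sum at 0 uM was 70.4, 84.2 and 88.3 CPM beside 55.7, 52.8 and 51.3 CPM. The progenitor sum at 0 uM was 1.54, 2.04 and 3.08 CPM beside 0.951, 0.792 and 1.41 CPM. Genes of myelin-forming cells summed to 28.9, 32.2 and 23.5 CPM beside 61.4, 51.1 and 49.8 CPM. The part of these differences in the members' levels was not tested.

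Baricitinib blocks JAK kinases, and the dose series asks how the Adar1 KO difference depends on them. Tgtp1 did not pass the filter in this set, and Iigp1 and Tgtp2 passed it only through libraries labelled Adar1 KO, so they had to differ in some group. Adar was at 7.42, 6.52 and 6.37 log2 CPM in Adar1 KO and at 5.12, 4.94 and 4.69 in NTC macrophages at 0 uM (log2FC 1.85, limma adjusted p 0.0051). Between 10 and 0 uM, Adar in Adar1 KO macrophages changed by a log2FC of -4.61.

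At 0 uM, 4 of 5 tested members were called higher in Adar1 KO, beside 3.87% of the 11152 genes tested. Iigp1 and Tgtp2 are among the calls, and by the filter they had to differ in some group. The median log2FC of the 5 was 3.39, or 3.27 with Iigp1 at its bound, beside -0.02 over all genes tested. Igtp was at 6.89, 7.10 and 7.33 log2 CPM in Adar1 KO and at 4.91, 4.96 and 4.82 in NTC macrophages (log2FC 2.21, SE 0.678, limma adjusted p 0.0169). Irgm1 was at 7.21, 7.44 and 7.34 log2 CPM and at 4.03, 3.97 and 3.81 (log2FC 3.39, SE 0.794, limma adjusted p 0.00221). Irgm2 was at 5.72, 5.70 and 5.91 log2 CPM and at 3.47, 3.33 and 3.47 (log2FC 2.36, SE 0.887, limma adjusted p 0.0513). No library of either group overlapped in the 3 regulators. The Irgm2 spread in the fit includes the Adar1 KO library that stood apart at 0.4 uM, without which Irgm2 was called (limma adjusted p 0.000507) and the count was 5. The Igtp call was lost without Adar1 KO replicate 3 (log2FC 2.10, limma adjusted p 0.0503, range 0.0347 to 0.0503), which left 3. Iigp1 was at 0 in every NTC library at 0 uM and at 0.68, 0.97 and 1.87 log2 CPM in Adar1 KO, at least 9.64-fold higher; with log2(CPM + 1) its fitted 1.66 was short of the fold limit. Tgtp2 was at 3.69, 4.91 and 4.02 log2 CPM in Adar1 KO and at -2.78, 0.12 and -0.67 in NTC macrophages (log2FC 5.32, SE 1.39, limma adjusted p 0.0054).

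The next doses left these differences in place. Iigp1 and Tgtp2 are again among the calls at both doses, and by the filter they had to differ in some group. At 0.0006 uM, 5 of 5 tested members were called higher in Adar1 KO, beside 5.00% of genes tested, with a median log2FC of 3.70 beside -0.00 over all genes tested. Irgm2 was called there at a log2FC of 2.37 (SE 0.887, limma adjusted p 0.0448), and the call was lost without any 1 of the 6 libraries (limma adjusted p between 0.0787 and 0.1), which left 4. With the replicate number as a block Irgm2 had a limma adjusted p of 0.06. At 0.016 uM, 5 of 5 tested members were called higher, beside 5.12% of genes tested, with a median log2FC of 4.06 (3.66 with Iigp1 at its bound) beside 0.00 over all genes tested. Irgm1 was at 7.56, 7.61 and 7.48 log2 CPM in Adar1 KO and at 3.33, 3.56, 3.49 and 3.58 in NTC macrophages at that dose (log2FC 4.06, SE 0.743, limma adjusted p 0.000105). Iigp1 was at 0 in every NTC library at 0.016 uM and at least 12.7-fold higher in Adar1 KO. With log2(CPM + 1) its fitted 1.75 at 0.0006 uM and 1.96 at 0.016 uM were short of the fold limit. Tgtp2 had log2FCs of 4.88 at 0.0006 uM and 6.11 at 0.016 uM (limma adjusted p 0.00884 and 0.000571). Markers differed too. The endothelium sum was 75.2 to 112 CPM beside 42.8 to 48.6 CPM in NTC at 0.0006 uM, and 92.0 to 135 beside 39.5 to 48.65 CPM at 0.016 uM. The progenitor sum was 1.79 to 4.48 beside 0.688 to 1.35 CPM, and 2.78 to 4.19 beside 0.699 to 1.29 CPM. Sums of myelin-forming cell genes were lower in Adar1 KO at both doses. The part of these differences in the members' levels was not tested.

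At 0.4 uM the count was 2 of 5 tested members, Igtp and Tgtp2, beside 1.78% of genes tested, and both calls rest on Adar1 KO replicate 2. By the filter Tgtp2 had to differ in some group. The median log2FC of the 5 was 2.10, or 2.16 without Iigp1, beside 0.01 over all genes tested. Adar1 KO replicate 2 had Igtp at 10.22, Irgm1 at 9.38, Irgm2 at 8.52, Iigp1 at 2.51 and Tgtp2 at 7.99 log2 CPM, each above every other library of the baricitinib set. Its Adar was at 7.38 log2 CPM beside 4.12 and 4.21, and its Ifnb1 was the highest of its group at 6.02. The other two Adar1 KO libraries at 0.4 uM had Igtp at 4.82 and 5.24, Irgm1 at 2.85 and 3.82, Irgm2 at 2.68 and 2.83, and Tgtp2 at -1.11 and -1.30 log2 CPM, with Iigp1 at 0. Markers set them apart from replicate 2 too. The neutrophil sum was 245, 76.3 and 325 CPM in Adar1 KO replicates 1 to 3 beside 59.8, 53.6, 52.9 and 94.0 CPM in NTC (S100a8 the most abundant, S100a9 at 0 in both, Ltf in Adar1 KO, Ngp and Ly6g in NTC), with Camp called higher of 2 tested. The border-associated sum was 37.2, 11.4 and 29.3 CPM beside 35.4, 48.5, 43.2 and 39.2 CPM (Mrc1 the most abundant, Lyve1 at 0 in both), with 1 of 3 tested, Pf4, called lower. The endothelium sum was 73.4, 237 and 68.4 CPM beside 43.0, 40.3, 38.3 and 44.5 CPM (Flt1 the most abundant, Cldn5 at 0 in both), with 0 of 2 tested called by limma and 2 at an unadjusted p under 0.05. The progenitor sum was 2.70, 5.69 and 3.62 CPM beside 0.824, 0.899, 1.31 and 0.779 CPM (Cd34 the most abundant, Kit at 0 in both), with Cd34, the 1 gene tested, called higher. The part of these differences in the members' levels at 0.4 uM was not tested. Without replicate 2 no member was called, with a log2FC of 0.49 for Igtp (limma adjusted p 0.0479) and 1.05 for Tgtp2 (limma adjusted p 0.505). Without Adar1 KO replicate 1 or 3 the count was 5. Without NTC replicate 2, 3 or 4 Tgtp2 was lost (limma adjusted p 0.0757, 0.0763 and 0.0709), which left 1.

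**Figure D4:**
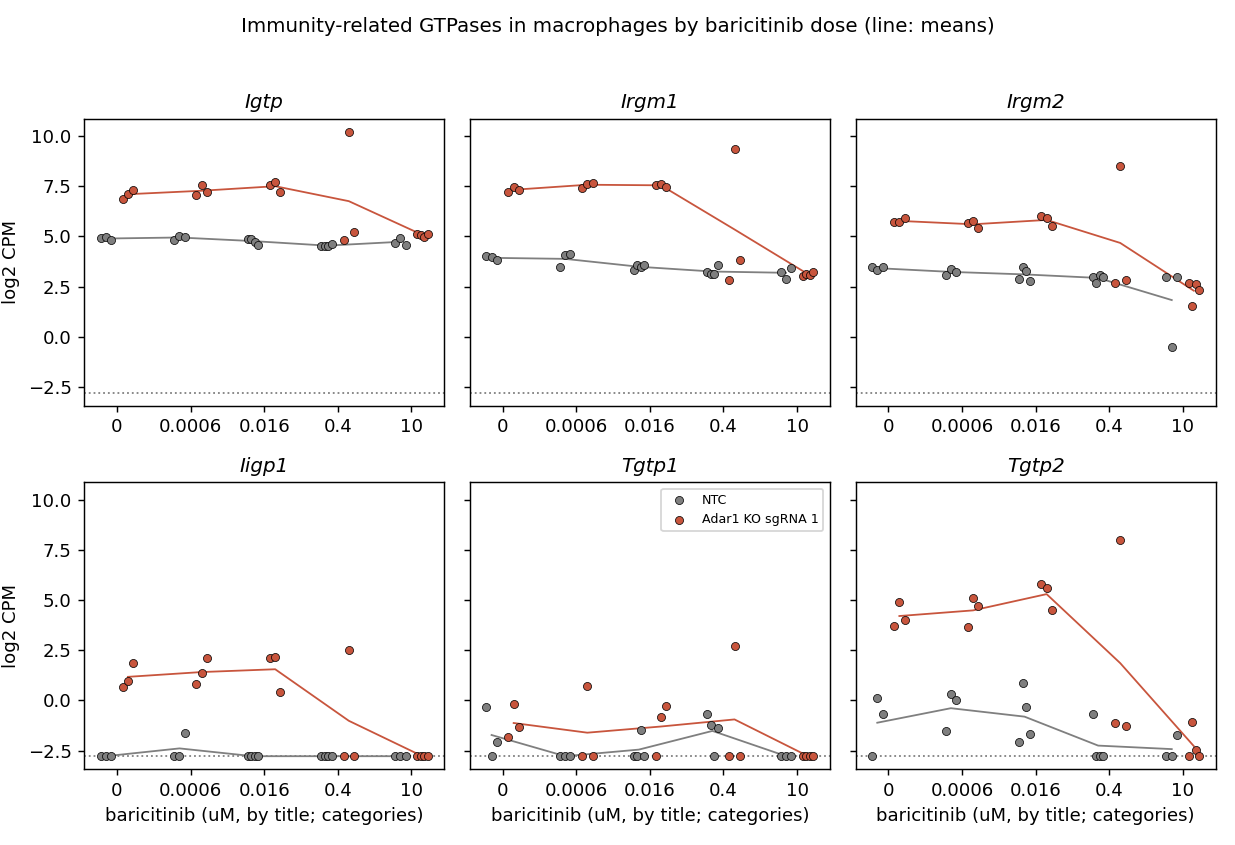
Log2 CPM of the 6 immunity-related GTPases by baricitinib dose (uM by title, spaced as categories) in NTC and Adar1 KO macrophages, 1 point a library, with lines through the group means and a dotted line at the lowest value (-2.78). Adar1 KO libraries had Irgm1 between 7.21 and 7.67 up to 0.016 uM and between 3.04 and 3.22 log2 CPM at 10 uM, and replicate 2 at 0.4 uM (9.38) stood apart.

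At 10 uM the members' levels were close between the groups, while cell type markers differed. By limma 0 of 5 tested members were called between Adar1 KO and NTC macrophages, beside 3.14% of genes tested, and 0 had an unadjusted p under 0.05. The median log2FC was 0.15, or 0.25 without Iigp1, beside 0.00 over all genes tested. Igtp was at 5.11, 5.07, 5.00 and 5.14 log2 CPM in Adar1 KO and at 4.69, 4.95 and 4.57 in NTC macrophages. Irgm1 was at 3.04, 3.14, 3.06 and 3.22 log2 CPM in Adar1 KO and at 3.25, 2.87 and 3.45 in NTC macrophages. Iigp1 was at 0 in every library of both groups. Irgm1 and Irgm2 overlapped between the groups. Each Adar1 KO library was above each NTC library in Igtp, by a fitted log2FC of 0.34 (SE 0.635, limma adjusted p 0.695). The SD of Igtp was 0.06 in Adar1 KO and 0.19 in NTC macrophages at 10 uM. The SE of each tested member includes the Adar1 KO library of another dose that stood apart from its group (Igtp at 10.22 log2 CPM). The p-values at 10 uM therefore cannot show that levels were the same. Without that library no member was called at 10 uM either. Of the markers, Cd34 (log2FC 2.97) and Mrc1 (2.28) were called higher in Adar1 KO and the astrocyte gene Aldh1l1 (-2.61) lower. Csf1r was short of the fold limit at -1.98. The progenitor sum was 10.8, 12.3, 12.1 and 14.3 CPM beside 1.81, 1.51 and 1.45 CPM in NTC macrophages. The macrophage sum was 3349, 2944, 2865 and 3007 CPM beside 4312.6 to 4622.5 CPM. The part of these differences in the members' levels was not tested.

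Within Adar1 KO macrophages, 10 against 0 uM called 5 of 5 tested members lower, beside 14.7% of genes tested. Iigp1 and Tgtp2 are among the calls, and by the filter they had to differ in some group. The median log2FC of the 5 was -3.96, or -3.48 with Iigp1 at its bound, beside 0.05 over all genes tested. Igtp fell by 2.03 on the log2 scale (limma adjusted p 0.00649), Irgm1 fell by 4.21 (limma adjusted p 1.61e-05), Irgm2 fell by 3.48 (limma adjusted p 0.000594) and Tgtp2 fell by 6.49 (limma adjusted p 8.42e-05). Iigp1 was at least 9.64-fold lower at 10 uM. The Iigp1 call was lost with log2(CPM + 1), at -1.66, and the Igtp call with quantile normalization, at -1.94. The doses did not overlap in any of these 5 members. Igtp was short of the fold limit without Adar1 KO replicate 3 at 0 uM (-1.91, limma adjusted p 0.0248) or replicate 3 at 10 uM (limma adjusted p 0.0135), which left 4. The factors Stat2, Irf1 and Irf9 were called lower too, with log2FCs of -5.26, -2.28 and -3.17, and 0 of 7 receptor chains and kinases were called by limma, with 3 at an unadjusted p under 0.05.

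Cell type markers moved in the same comparison. The progenitor sum was 1.54, 2.04 and 3.08 CPM at 0 uM and 10.8, 12.3, 12.1 and 14.3 CPM at 10 uM, with Cd34, the 1 gene tested of 3 and the most abundant, called higher and Kit at 0 at 10 uM. The macrophage sum was 5367, 5185 and 5326 CPM at 0 uM and 3349, 2944, 2865 and 3007 CPM at 10 uM (Cd68 the most abundant, none at 0), with 0 of 5 genes called by limma and 4 at an unadjusted p under 0.05. The endothelium sum was 70.4, 84.2 and 88.3 CPM at 0 uM and 39.4, 38.1, 31.1 and 33.0 CPM at 10 uM (Flt1 the most abundant, Cldn5 at 0 in both). The neutrophil sum was 65.0, 67.6 and 54.1 CPM at 0 uM and 147, 87.0, 69.4 and 100 CPM at 10 uM. Of 3 border-associated macrophage genes tested 2, Pf4 and Cd163, were called higher at 10 uM, with a sum of 98.3, 95.1 and 89.1 CPM at 0 uM and 65.6, 70.3, 56.1 and 50.6 CPM at 10 uM (Mrc1 the most abundant, Lyve1 at 0 at 0 uM). P2ry12 was also called higher at 10 uM. Their part in the lower levels of the members was not tested.

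In NTC macrophages 10 against 0 uM gave 0 of 5 tested members called by limma, beside 0.834% of genes tested, and 0 with an unadjusted p under 0.05. The median log2FC was -0.75, or -1.03 without Iigp1, beside -0.00 over all genes tested. Irgm1 had a log2FC of -0.75 (SE 0.794) and Irgm2 of -1.59 (SE 0.887), where NTC replicate 2 at 10 uM was at -0.49 log2 CPM beside 3.00 and 2.98. The size of the Irgm2 value rests largely on that library, since Irgm2 was at 3.47, 3.33 and 3.47 log2 CPM in NTC macrophages at 0 uM. In both genes every NTC library at 10 uM was below every NTC library at 0 uM. Their SE includes the Adar1 KO library that stood apart at 0.4 uM, without which the limma adjusted p was 0.00492 for Irgm1 and 0.0224 for Irgm2, short of the fold limit at the same log2FCs. The interaction of guide and dose called 3 of 5 tested members lower, beside 7.11% of genes tested, with a median of -3.47 beside 0.06 over all genes tested. Iigp1 and Tgtp2 are among these and passed the filter only through libraries labelled Adar1 KO. Their calls are no support for a difference, and Irgm1 was the call not forced by the filter. Irgm1 had -3.47 (SE 1.09, limma adjusted p 0.0129) and Tgtp2 had -5.17 (SE 1.90, limma adjusted p 0.032), while the fitted -3.96 of Iigp1 (limma adjusted p 0.00585) depends on the prior count. The Tgtp2 interaction was lost without NTC replicate 1 at 0 uM, NTC replicate 3 at 10 uM, Adar1 KO replicate 2 at 0 uM or Adar1 KO replicate 1 at 10 uM (limma adjusted p 0.0915, 0.0684, 0.0677 and 0.0501), which left 2. Irgm2 was not called at -1.89 (limma adjusted p 0.224), and was called without NTC replicate 2 at 10 uM (-3.05, limma adjusted p 0.0388), which gave 4. Igtp was not called at -1.87 (SE 0.929, limma adjusted p 0.112). Over the 33 baricitinib libraries genes most like the members included Ube2l6 (mean Pearson r 0.907), Rnf34 (0.906), Phf11b (0.904) and Samhd1 (0.902), again across groups that share libraries.

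**Figure D5:**
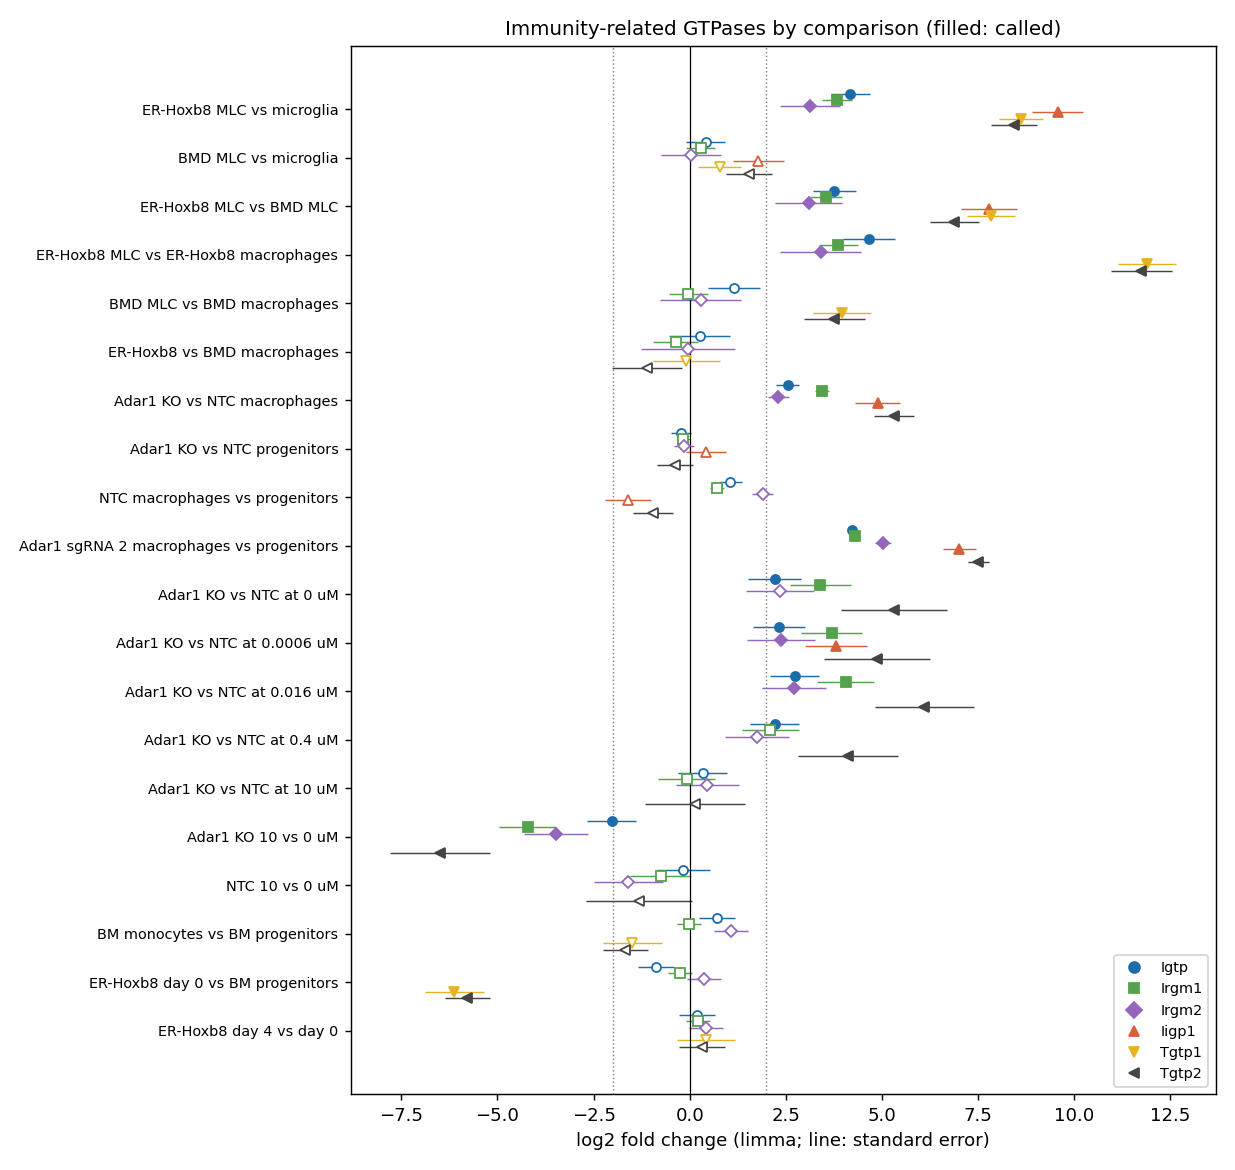
Fitted log2FC of each tested member in each comparison, with filled symbols for calls, lines for the SE and dotted lines at a log2FC of 2 and -2; pairs with a group at 0 in every library are left out. Tgtp1 and Tgtp2 had the largest values shown, 11.90 and 11.75 in Hoxb8 MLC against Hoxb8 macrophages, and no regulatory member passed 5.02.

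Before differentiation, bone marrow cells and ER-Hoxb8 cells were compared in the early set, where Iigp1 did not pass the filter. It was at -0.46, -0.34 and -0.50 log2 CPM in bone marrow progenitors and at the lowest value in 2 of 3 day 0 and 3 of 3 day 4 ER-Hoxb8 libraries. By limma 0 of 5 tested members were called between bone marrow monocytes and progenitors, beside 6.84% of the 12056 genes tested, and 2 had an unadjusted p under 0.05, Irgm2 (log2FC 1.08, limma adjusted p 0.124) and Tgtp2 (log2FC -1.67, limma adjusted p 0.084). The median log2FC of the 5 was -0.02, beside -0.09 over all genes tested. Between ER-Hoxb8 cells at day 0 and bone marrow progenitors 2 of 5 were called, both lower, beside 15.3% of genes tested, with a median log2FC of -0.88 beside -0.08 over all genes tested. Tgtp2 was at 0.00, 0.90 and 0.29 log2 CPM at day 0 and at 7.13, 5.80 and 5.61 in bone marrow progenitors (log2FC -5.78, SE 0.596, limma adjusted p 3.33e-05). Tgtp1 was at -2.94, -2.47 and -4.34 log2 CPM at day 0 and at 3.50, 3.01 and 2.11 in bone marrow progenitors (log2FC -6.12, SE 0.764, limma adjusted p 0.000133). These groups were far apart in both effectors, while the 3 regulators had log2FCs between -0.88 and 0.37. NK and T cell genes were lower at day 0 too, in 7 of 7 tested, with a median sum of 1.00 CPM (Cd3e at 0) beside 240 to 465 CPM in bone marrow progenitors, where Nkg7 was the most abundant although the methods describe a depletion of lineage-positive cells, and other lists differed as well. Neutrophil genes were called lower in 6 of 6, with a sum of 22.1, 38.1 and 11.7 CPM at day 0 (S100a8 the most abundant) beside 288, 9697 and 4270 CPM (Ngp). Progenitor genes were called lower in 3 of 3, with 33.1, 19.3 and 10.7 CPM beside 453, 242 and 290 CPM (Kit the most abundant in both). Macrophage genes were called higher in 3 of 5 (Cd68, Emr1 and Mertk), with 2084, 4680 and 450 CPM (Cd68 the most abundant) beside 136, 222 and 194 CPM (Csf1r). Border-associated macrophage genes were called lower in 2 of 3 tested (Pf4 and Cd163), with 115, 512 and 8.45 CPM (Mrc1 the most abundant) beside 74.9, 191 and 257 CPM (Pf4). No gene of these lists was at 0 in every library of either group, and the part of such cells in the Tgtp1 and Tgtp2 difference was not tested.

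From day 0 to day 4 of ER-Hoxb8 differentiation 0 of 5 tested members were called by limma, beside 0% of genes tested, and 0 members and 1129 of all genes had an unadjusted p under 0.05. That share was not stable, since between 0 and 738 genes were called when 1 library was left out. Same-numbered libraries deviated together in this comparison (r 0.229 to 0.469), and the fit did not pair them. With the replicate number as a block no member call changed here. The members' median log2FC was 0.32, beside -0.01 over all genes tested. Igtp was at 5.43, 5.06 and 4.68 log2 CPM at day 0 and at 5.20, 5.16 and 5.38 at day 4. Irgm1 was at 4.22, 4.58 and 4.59 log2 CPM at day 0 and at 5.40, 4.31 and 4.35 at day 4. Libraries of both days overlapped in these members, with fitted log2FCs of 0.19 and 0.22.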

How the data were processed

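The submitters' processing notes name kallisto 0.46.0, edgeR and limma with the GRCm39 build, and the authors deposited 1 table of TMM-normalized log2 CPM. It was used as it stands: 92 library columns, 29956 named genes and 1 entry without a name (0.00217% to 0.0424% of a library). Groups follow the sample titles. Libraries were tested only within a set that shares 1 lowest value, so NTC macrophage replicate 2 was left out. A gene entered a fit when 6 libraries of the brain set, or 3 of another set, had it over 1 CPM, and was tested with limma 3.58.1 in R 4.3.3 (eBayes with trend, Benjamini-Hochberg over all genes tested), after a check on simulated data; a call needs an adjusted p under 0.05 together with a log2FC no smaller in size than 2. Folds of a gene at 0 in a group use a floor of 3 counts per library, which covers counting error only. The floor takes the mean depth of a set, inferred from its lowest value, since depths of single libraries are not known. Fitted values depend on the prior count of 2 in the deposited scale.

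Named genes were the 6 members, Adar, the lists of the interferon pathway, of the GTPase family, of autophagy and of cell type markers, and per fit the 5 genes with the highest mean Pearson r with the members. Some genes that this rule names are not reported here. The members and lists were chosen with earlier results of these data known. Promoter sequences came from a RefSeq table (GRCm38.p6). Alternatives changed the fold limit, pseudocount, filter, scaling, weights, pairing, libraries in the fit and the split of Tgtp1 and Tgtp2. Replicate numbers were checked as pairs by the correlation of deviations from group means: among comparisons with 3 or more pairs, every pair was above 0.1 only for Adar1 KO against NTC progenitors (0.195 to 0.423) and for ER-Hoxb8 day 4 against day 0 (0.229 to 0.469); Adar1 KO against NTC macrophages, with 2 pairs, had 0.186 and 0.206. Python 3.11.15, numpy 2.4.6, pandas 2.3.3 and matplotlib 3.10.9 were used.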

Additional observations from a re-analysis of the deposited data

Results flagged for a closer look

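In 7 of 42 pairs of a member and a group of 4 to 9 libraries, 1 library lay far from the rest by Dixon's test at the 5% level. Chance gives about 1 in 20 where values vary, but 3 of these pairs lie at or near the lowest value except for 1 library, and Iigp1 was at the lowest value in every library of NTC at 0.016 and 0.4 uM and of Adar1 KO at 10 uM, so 7 of 42 cannot be set against that share. Microglia replicate 8 accounts for 3 of them: Igtp at 2.06 (others 6.16 to 6.72), Irgm2 at -1.80 (others 3.23 to 5.50) and Tgtp2 at 0.16 log2 CPM (others 2.72 to 4.42). Igtp in BMD MLC replicate 3 was at 5.77 (others 6.36 to 6.60). The remaining 3 are libraries above the lowest value in groups otherwise at or near it, by very little in the Adar1 KO library: Tgtp1 at -1.47 in NTC replicate 3 at 0.016 uM, Tgtp1 at -2.779 in Adar1 KO replicate 3 at 10 uM, and Tgtp2 at -0.67 in NTC replicate 1 at 0.4 uM. The cause of these values was not tested.

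Differences between effects were tested directly as interactions, and those with a limma adjusted p below 0.05 are given here. The change from culture to brain was larger for Hoxb8 than for BMD cells in Igtp by 3.51, Irgm1 by 3.91, Iigp1 by 7.79, Tgtp1 by 7.93 and Tgtp2 by 7.99 (log2). Donor genotype differs between brain and culture in the Hoxb8 cells only, so it and donor kind cannot be told apart here. The Adar1 KO difference was larger in macrophages than in progenitors in Igtp by 2.77, Irgm1 by 3.60, Irgm2 by 2.45, Iigp1 by 4.47 and Tgtp2 by 5.69. The Adar1 KO difference was smaller at 10 than at 0 uM baricitinib in Irgm1 (-3.47), Iigp1 (-3.96) and Tgtp2 (-5.17). The Iigp1 values of the brain and baricitinib interactions depend on the prior count, and Iigp1 passed the filter of the Adar1 stage fit only through the Adar1 KO macrophages, so it had to differ there. Iigp1 and Tgtp2 passed the filter of the baricitinib fit only through libraries labelled Adar1 KO, so they too had to differ in some group, and these 3 values are no support for a difference. The Igtp value of the brain interaction was no longer called in 16 of 18 fits without 1 library, with WTHox libraries alone (limma adjusted p 0.137) and with no filter (0.0646). The Tgtp2 value of the baricitinib interaction was no longer called in 4 of 13 fits without 1 library, with no filter (limma adjusted p 0.0634) and with Tgtp1 and Tgtp2 summed (0.0678), and the Iigp1 value was -1.66 with log2(CPM + 1), short of the fold limit.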

How the results depend on the processing

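The counts of members called were recomputed under each alternative, 402 values over 23 results: 385 stayed within 1.5 times the count reported, 17 moved, and no member's call reversed its direction under any alternative run. NTC macrophages against progenitors went from 0 to 3 with a log2 fold limit of 1. For Adar1 KO against NTC at 0.4 uM the count of 2 became 1 with log2(CPM + 1), 1 with no filter, 0 with array weights and 0 with only the 2 groups in the fit. Bone marrow monocytes against progenitors went from 0 to 1 with no filter, and ER-Hoxb8 day 0 against bone marrow progenitors from 2 to 1 with a mean CPM above 5. The cause was not tested.

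Leaving out 1 library at a time, counts ranged from 0 to 5 for Adar1 KO against NTC at 0.4 uM, from 0 to 1 for BMD MLC against microglia and from 0 to 1 for NTC macrophages against progenitors. Of 1064 values of single members, called or not, 1018 stayed on their side of the call, 35 lost a call and 11 gained one.

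The replicate block moved no count by more than 1.5 times. It changed 2 of 122 member values: Irgm2 in the brain interaction was called with a limma adjusted p of 0.0221, and Irgm2 at 0.0006 uM was lost at 0.06. Same-numbered libraries deviated together in every pair in 2 comparisons with 3 pairs and in 1 with 2 pairs (Adar1 KO against NTC macrophages).

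On the scale of log2(CPM + 1), which shrinks differences at low levels by construction, 7 member calls were lost: Tgtp1 in BMD MLC against BMD macrophages (1.49), Tgtp2 at 0.4 uM (2.77, limma adjusted p 0.0561), and Iigp1 at 0, 0.0006 and 0.016 uM (1.66, 1.75 and 1.96), at 10 against 0 uM (-1.66) and in the baricitinib interaction (-1.66). Irgm2 at 0 uM was gained (2.27, limma adjusted p 0.0384), as it was with a mean CPM above 5 (0.0471) and with only the 2 groups in the fit (2.9e-05). Array weights gained Irgm2 at 0 uM (limma adjusted p 0.000254), in the brain interaction (0.000272) and in the baricitinib interaction (0.00647), and lost Igtp and Tgtp2 at 0.4 uM (0.67 and 1.11, limma adjusted p 0.015 and 0.235). With no filter, calls were lost for Igtp in the brain interaction (limma adjusted p 0.0646), Irgm2 at 0.0006 uM (0.082), Tgtp2 at 0.4 uM (0.0674) and Tgtp2 in the baricitinib interaction (0.0634).

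Quantile normalization left 120 of 122 member values, called or not, on their side of the call; Igtp at 10 against 0 uM was lost (-1.94), and Irgm2 at 0 uM was gained (limma adjusted p 0.0371). It moved the median log2FC of all genes by 0.18 for Hoxb8 MLC against BMD MLC, by 0.13 against Hoxb8 macrophages, by -0.12 for Adar1 KO against NTC macrophages, by -0.11 for BMD MLC against microglia and by 0.12 for day 0 against bone marrow progenitors; for the brain and Adar1 stage interactions it moved by 0.12 and -0.13. The percent of calls that were higher went from 32.3% to 53.2% for Hoxb8 MLC against BMD MLC, from 60.7% to 49.8% for BMD MLC against BMD macrophages, from 43.0% to 53.4% for monocytes against progenitors and from 29.6% to 51.4% for day 0 against progenitors.

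The fits without Adar1 KO replicate 2 at 0.4 uM and without microglia replicate 8 were chosen after seeing the data. Summing Tgtp1 and Tgtp2 left 31 of 33 values, called or not, on their side of the call; the calls lost were Tgtp2 at 0.4 uM (3.18, limma adjusted p 0.0954) and in the baricitinib interaction (-4.31, limma adjusted p 0.0678).

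Depth limits Iigp1, Tgtp1 and Tgtp2 in cultured cells: in the baricitinib libraries (inferred mean depth 13.7 M reads) 3 counts correspond to 0.218 CPM, and differences below that were not detectable. With 2 NTC macrophage libraries, the spread of that group comes mostly from the other groups of the fit. Engraftment, donor genotype and RNA preparation cannot be told apart in Hoxb8 MLC against Hoxb8 macrophages.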
